A study of Homo sapiens with 6 samples.

Results

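Eph receptors are receptor tyrosine kinases on the cell surface, and ephrins are the membrane-bound ligands that they meet on a neighbouring cell. A-type ephrins are held in the membrane by a lipid anchor and B-type ephrins span it. Binding sends a forward signal into the cell with the receptor and a reverse signal into the cell with the ephrin, and in epithelia these contacts act on adhesion, cell sorting and movement. This account covers 9 such genes, the receptors EPHA1, EPHA2, EPHA4, EPHB2, EPHB3 and EPHB4 and the ephrins EFNA1, EFNB1 and EFNB2, taken by gene symbol from the 19198 genes of an RNA-Seq table. All 9 are in the table, and all 9 passed the filter on low values, a mean of at least 10 normalized counts over the 6 samples.

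The cells were MCF10A, an established line of human mammary epithelial cells that does not form tumours. Growth factor+ samples (control, n = 3) were kept in 5% horse serum with insulin at 10 µg/ml, EGF at 20 ng/ml, cholera toxin at 100 ng/ml and hydrocortisone at 0.5 µg/ml. Growth factor- samples (depleted, n = 3) had the 5% horse serum without these 4 additions, and by the labels all 6 received glutamine, penicillin and streptomycin. The study used this withdrawal to bring on an epithelial to mesenchymal transition without added TGFβ. The additions were withdrawn together, so the effect of any of them alone cannot be told apart, and horse serum brings factors of its own to both groups. The day of RNA harvest is not given for the samples, and nothing states that replicates were separate cultures, so p-values measure the spread between these samples, which may be technical.

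Values are normalized counts, that is reads per gene divided by the sample's size factor. Depth was between 7472418 and 28672630 reads on genes per sample, and 3 reads corresponded to 1.76 to 6.71 normalized counts. In bulk RNA, fewer cells with a transcript and less transcript per cell cannot be told apart. The label calls the cells luminal ductal, while the study describes MCF10A as normal-like basal cells. Of 11 luminal markers, 8 were listed and tested, with PGR, ELF5 and KIT absent from the table, and 1, KRT19, fell without growth factors. Their summed level was 9115 to 18676 normalized counts in control and 18425 to 31712 in depleted samples. Most of the sum in depleted samples was KRT8 and KRT18, with log2 fold changes of 1.10 and 1.17, neither called. KRT19, EPCAM, MUC1, GATA3, FOXA1 and ESR1 all had negative log2 fold changes, from -2.99 for ESR1 to -0.28 for GATA3. All 8 basal and myoepithelial markers were listed and tested, of which ACTA2, MYLK and OXTR rose and TP63 fell. They summed to 20832 to 49001 in control and 27310 to 149569 in depleted samples. Most of that sum was KRT5 and KRT17 in control samples and KRT17 in depleted samples. KRT17 had a log2 fold change of 2.44 and KRT5 of -2.04, neither called. Only KRT5 and TP63 of this list had negative log2 fold changes. Of 9 fibroblast markers, all were listed, 8 were tested and 6 rose without growth factors. Their summed level was 814 to 1721 normalized counts in control samples and 15875 to 35317 in depleted samples, while THY1 lay at 0.0 to 6.7. Of 7 leukocyte markers, 3 were listed and 2 were tested, neither of them called or under an unadjusted limma p of 0.05. The leukocyte sum, 284 to 909 in control and 96.4 to 665 in depleted samples, was mostly CD14, while PTPRC lay at 0.0 to 2.0 in control and 10.1 to 13.8 in depleted samples. Of 8 endothelial markers, 5 were listed and 4 were tested, with a summed level of 194 to 1790 in control and 274 to 1617 in depleted samples. CDH5 rose, from 8.8, 4.1 and 4.9 to 25.6, 118.7 and 100.6. KDR went the other way, from 778.3, 32.2 and 66.9 to 0.0, 24.9 and 22.4, and was not called. PECAM1 and ESAM had overlapping groups, and the control sum was mostly PECAM1 and KDR. The part of these cell type markers in the results on Eph receptors and ephrins was not tested.

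A gene was called when limma, fitted on the 16988 genes above the filter, gave it a p under 0.05 after Benjamini-Hochberg adjustment together with a 2-fold or larger change. By that rule 0 of the 9 genes were called, beside 6.33% of all genes tested, 4.36% higher and 1.97% lower in depleted cells. Changes were wide for some members and small for others, from a log2 fold change of -2.68 for EPHA1 to 4.23 for EPHB2. At an unadjusted limma p under 0.05 stood 4 of the 9, EPHA1, EPHA4, EPHB2 and EFNB1, beside 20.0% of all genes. The 3 depleted and 3 control samples did not overlap for 5 of the 9, those 4 and EPHB4, beside 25.6% of all genes. On recovered whole reads, edgeR's quasi-likelihood test called 0 of the 9 (5.72% of all genes) and DESeq2 called 3, EPHA1, EPHB2 and EFNB1 (12.4% of all genes). The median log2 fold change was -0.45 over the 9 genes, 0.51 over the 6 receptors and -0.60 over the 3 ephrins, against -0.03 over all genes tested.

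**Figure D1:**
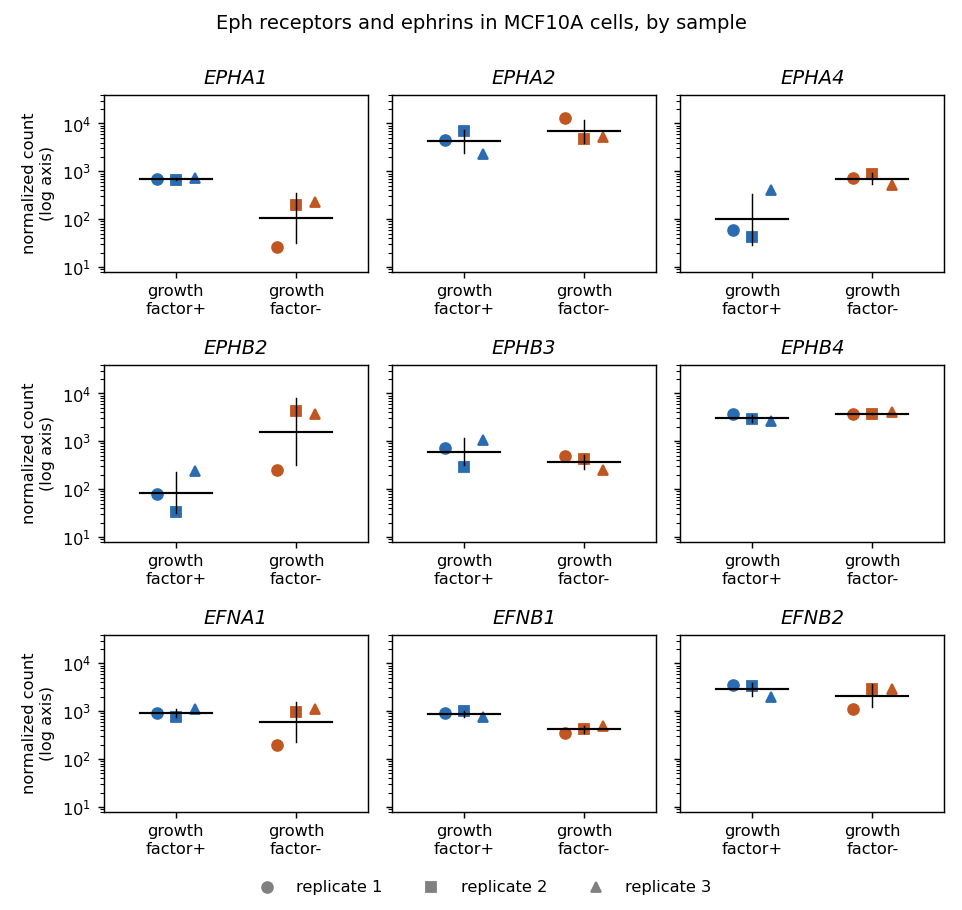
Normalized counts of the 9 genes on a log axis, growth factor+ samples in blue and growth factor- samples in orange, with a marker shape per replicate number, a line at the mean of log2(value + 1) and a bar of ± 1 SD on that scale. EPHA1 and EFNB1 lie lower in all 3 depleted samples and EPHA4 and EPHB2 higher, and the depleted replicate 1 of EPHA1, EPHB2 and EFNA1 stands far below the other depleted samples.

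Among the receptors, EPHB2, which binds B-type ephrins and is known for sorting cells along the intestinal crypt, had the largest rise in value. Its gene lies on chromosome 1 (hg38, chr1:22710839-22921500, plus strand, ENSG00000133216). EPHB2 stood at 77.7, 32.8 and 234.1 normalized counts in control replicates 1, 2 and 3 and at 253.5, 4370.0 and 3698.2 in depleted replicates 1, 2 and 3. Depleted replicates 2 and 3 were far above every control sample, while depleted replicate 1 was only just above control replicate 3. The log2 fold change was 4.23 (SE 1.10, 95% interval 1.71 to 6.75), with a limma adjusted p of 0.0618. EPHB2 was called by DESeq2 with all 6 samples (adjusted p = 5.4e-06), and limma called it when some samples were left out. Without depleted replicate 1 the log2 fold change was 5.56 with a limma adjusted p of 0.00652 (2 of the 9 genes called, EPHA1 and EPHB2, beside 5.28% of all genes), and without control replicate 3 it was 4.96 with 0.0356 (3 of the 9 called, EPHA4, EPHB2 and EFNB1, beside 14.9%). Over 18 alternative settings the adjusted p of EPHB2 ran from 5.4e-06 to 0.212, and its log2 fold change stayed between 3.5 and 5.56.

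EPHA1, the first member of the family to be cloned and a gene of epithelia, moved the other way. It lies on chromosome 7 (chr7:143390289-143408856, minus strand, ENSG00000146904). Control samples were tight at 686.8, 652.6 and 729.9 normalized counts, and depleted samples were at 26.5, 194.7 and 230.3. The groups did not overlap, and depleted replicate 1 was the lowest. The log2 fold change of EPHA1 was -2.68 (SE 0.74, 95% interval -4.36 to -1.0), a 6.41-fold lower level, with a limma adjusted p of 0.0725. Without depleted replicate 1 it was -1.70 with a limma adjusted p of 0.0264, inside a range of 0.00936 to 0.188 over the alternatives. ZYX, the gene of the focal adhesion protein zyxin, overlaps EPHA1 on the opposite strand and was at 704.3, 1651.5 and 1283.8 in control and 2248.9, 3352.4 and 3347.2 in depleted samples. The libraries were strand-specific, but whether counting used the strand is not given in the sources used here. How reads where the genes overlap were counted is not given either. Overlapping long noncoding RNAs listed for EPHA2, EPHA4 and EFNB2 were at 50.2 normalized counts or less in every sample.

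EPHA4, a receptor that binds ephrins of both types and is known for guiding axons, lies on chromosome 2 (chr2:221418027-221574202, minus strand). It was at 58.9, 41.6 and 408.2 normalized counts in control and at 718.5, 885.1 and 525.4 in depleted samples. The depleted samples were all higher, though control replicate 3 came close to the lowest of them. The log2 fold change of EPHA4 was 2.78 (SE 0.77, 95% interval 1.02 to 4.53), with a limma adjusted p of 0.0742. Without control replicate 3 it was 3.78 with a limma adjusted p of 0.00226, while it was 2.15 without control replicate 2, 2.09 by edgeR and 2.05 by DESeq2, with none of these called. With all 6 samples, limma called EPHA4 when the replicate number was added as a block (adjusted p = 0.0401), though nothing states that the numbers pair the samples. Over all alternatives the adjusted p of EPHA4 ran from 0.00226 to 0.233.

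EPHA2, a receptor common in cultured epithelial cells and in breast cancer, had the highest level per kb of transcript among the receptors and lies on chromosome 1 (chr1:16124337-16156069, minus strand). It was at 4511.7, 7043.6 and 2348.2 in control samples and at 12846.1, 4733.9 and 5180.7 in depleted samples. Depleted replicate 1 was the highest of all and the groups overlapped. The log2 fold change was 0.69 (SE 0.52, 95% interval -0.50 to 1.88), which a limma adjusted p of 0.532 does not tell from 0.

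EPHB4, the receptor paired with ephrin-B2 in vessels and in the mammary gland, had the smallest fold change of the 9. It lies on chromosome 7 (chr7:100802565-100827523, minus strand) and was at 3680.8, 2926.9 and 2603.0 normalized counts in control and 3701.4, 3709.1 and 4009.0 in depleted samples. Its groups did not overlap, but control replicate 1 and depleted replicate 1 lay next to each other. The log2 fold change of 0.32 (SE 0.27) had a 95% interval of -0.30 to 0.94 and a limma adjusted p of 0.583, so the interval lay within 2-fold in both directions. SLC12A9 overlaps EPHB4 on the opposite strand and was at 615.3, 795.6 and 911.9 in control and 713.9, 448.5 and 500.9 in depleted samples. How reads in that overlap were counted is not given. EPHB3, another receptor of B-type ephrins (chr3:184561785-184582408, plus strand), was at 710.6, 292.3 and 1042.8 in control and at 482.4, 422.2 and 254.9 in depleted samples. These values overlapped, and the log2 fold change was -0.69 (SE 0.49, 95% interval -1.81 to 0.44; limma adjusted p = 0.51).

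All 3 ephrins had lower fitted values without growth factors, and the groups were apart only for EFNB1. EFNB1, a transmembrane ligand of EPHB receptors that is the gene of craniofrontonasal syndrome, lies on the X chromosome (chrX:68829021-68842160, plus strand). It was at 928.7, 1004.1 and 741.7 normalized counts in control and 357.9, 417.7 and 485.2 in depleted samples. The 3 depleted samples lay close together below the lowest control sample. Its log2 fold change was -1.08 (SE 0.28, 95% interval -1.72 to -0.45; limma adjusted p = 0.0592), a 2.12-fold lower level of EFNB1. The adjusted p was 0.0215 without control replicate 3, 0.00971 by DESeq2 and 0.0308 after correcting for GC content and transcript length (1 of the 9 genes called, beside 7.88% of all genes), in a range of 0.00971 to 0.202 over the alternatives.

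EFNB2, the ligand of EPHB4 and a marker of arteries, lies on chromosome 13 (chr13:106489745-106535662, minus strand). It was at 3519.1, 3424.9 and 2013.7 normalized counts in control and 1114.8, 2982.6 and 2884.4 in depleted samples. Only depleted replicate 1 lay below the control samples. The log2 fold change was -0.45 (SE 0.44, 95% interval -1.45 to 0.56; limma adjusted p = 0.649) and 0.02 without that sample. EFNA1, the lipid-anchored ligand of EPHA2 (chr1:155127876-155134899, plus strand), showed the same arrangement. It was at 921.1, 763.4 and 1100.8 in control and 199.5, 982.2 and 1133.6 in depleted samples, and the log2 fold change of EFNA1 was -0.60 (SE 0.61, 95% interval -2.0 to 0.80; limma adjusted p = 0.662), which turned to 0.20 without depleted replicate 1.

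Depleted replicate 1 stood apart for many of these genes. Compared with the mean log2 value of depleted replicates 2 and 3, its log2 value differed by -3.98 for EPHB2, -2.95 for EPHA1, -2.40 for EFNA1 and -1.39 for EFNB2, and by 1.37 for EPHA2. In all, 5 of the 9 genes differed by at least 2-fold in that comparison, beside 18.2% of all genes tested. Control replicate 3 differed by at least 2-fold from the mean log2 value of control replicates 1 and 2 for 4 of the 9, by 3.02 for EPHA4, 2.19 for EPHB2, 1.19 for EPHB3 and -1.26 for EPHA2 on the log2 scale. That share is close to the 41.6% of all genes that did so. Depleted replicate 1 also had the highest summed fibroblast markers of the 6 samples, at 35317 normalized counts. Not every marker of that list was highest there. FAP was at 1939.5, 7411.6 and 5918.5 and COL1A1 at 1999.9, 2835.1 and 675.3 in depleted replicates 1, 2 and 3. Markers of other lists set this sample apart too, such as KRT5 at 562.0, 10908.3 and 14996.5 in the same order. A link of these markers to the Eph and ephrin values was not tested.

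Of 13 further Eph and ephrin genes considered, 9 were listed and 8 were tested, while EPHA7, EPHA8, EPHA10 and EFNA2 were not in the table. By the same limma rule 1 rose and 1 fell, beside 6.33% of all genes. EPHB6, a receptor without kinase activity, was at 451.2, 65.6 and 111.2 normalized counts in control and at 3419.5, 1264.1 and 1368.4 in depleted samples, and the groups were far apart. EPHB6 rose by 3.59 on the log2 scale (SE 0.70, limma adjusted p = 0.0201). It lies on chromosome 7, 519 kb before EPHA1, which had lower values in the same samples. The call for EPHB6 ended without control replicate 2 and without any of the depleted samples, with log2 fold changes between 3.01 and 3.85.

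EFNA3, a lipid-anchored ligand, was at 105.3, 113.7 and 89.5 normalized counts in control and 14.6, 37.4 and 24.6 in depleted samples, and its groups were apart. EFNA3 fell by 2.06 on the log2 scale (SE 0.49, limma adjusted p = 0.0464), and this call was lost in 10 of 18 alternatives, edgeR among them, with every direction kept. EFNA4, EFNA3 and EFNA1 lie in that order on the plus strand of chromosome 1, with gaps of 9.28 kb and 40.3 kb. EFNA4 differed by -0.15 on the log2 scale (limma adjusted p = 0.914) and changed sign by edgeR, by DESeq2 and without depleted replicate 1.

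The remaining family genes did not pass. EPHA3, EPHA5 and EPHA6 are receptors of A-type ephrins studied mainly in neurons, EFNA5 is a lipid-anchored ligand and EFNB3 a transmembrane ligand. EPHA5 was at 7.5, 0.0 and 6.9 normalized counts in control and 28.4, 64.9 and 40.2 in depleted samples, with groups apart and a log2 difference of 3.41 (limma adjusted p = 0.0681). It passed the filter only through the depleted samples, with means of 4.8 in control and 44.5 in depleted samples. Its control values lay near the level of 3 reads, so the separation and the size of its change are not firm. EPHA3 was at 258.2 in control replicate 1 but 3.5 and 2.0 in replicates 2 and 3, and at 58.6 to 221.0 in depleted samples, and its log2 fold change was 3.03 (limma adjusted p = 0.324). EPHA6, EFNA5 and EFNB3 had log2 fold changes of -0.92, -0.60 and 1.42 with overlapping groups. EPHA5 and EFNB3 were called without control replicate 3, with log2 fold changes of 3.88 and 2.41, and EPHA3 without control replicate 1, with 5.07. EPHA3 was at 1.85 without control replicate 3, 0.75 by edgeR and 0.70 by DESeq2. EPHA5 was also called by DESeq2 (3.30, adjusted p = 0.0124) and with a pseudocount of 10 (1.87, limma adjusted p = 0.0341). EPHB1, a receptor of B-type ephrins, was under the filter, at 0.0, 0.6 and 3.0 in control and 4.6, 8.5 and 11.2 in depleted samples.

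**Figure D2:**
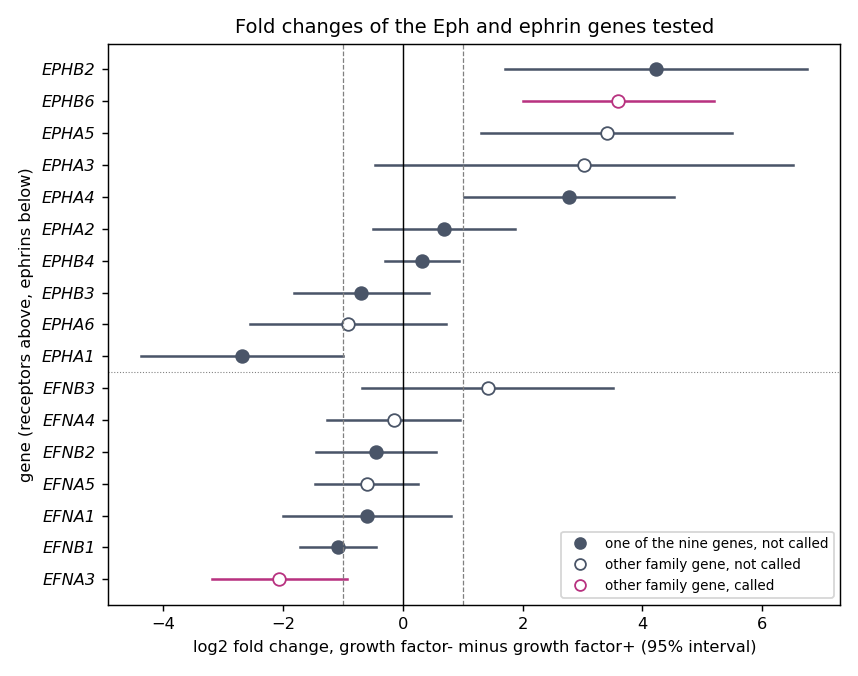
Log2 fold changes (growth factor- minus growth factor+) of the 17 Eph and ephrin genes tested, with 95% intervals from limma, receptors above and ephrins below, filled points for the 9 genes described here and pink for genes called. Intervals of EPHB2, EPHA4, EPHA1, EFNB1 and EPHA5 leave out 0 without a call, while EPHB6 and EFNA3 are the only genes called after adjustment over all genes.

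Levels of different genes were ranked only after division by the length of the canonical transcript, as normalized counts per kb. EPHA2 led the receptors with 1174 ± 596 normalized counts per kb (SD, n = 3) in control and 1923 ± 1156 in depleted cells, and EPHB4 followed with 705 ± 127 and 874 ± 40.3. In control samples these leaders overlapped each other, whereas EPHA1 at 208 ± 11.7 and EPHB3 at 161 ± 88.8 overlapped each other and stood below EPHB4. EPHB6, EPHA4 and EPHB2 were at 52.3 ± 52.7, 26.7 ± 32.5 and 10.4 ± 9.58 per kb in control samples, with overlapping ranges.

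Without growth factors the order below EPHB4 was EPHB6 at 504 ± 304, EPHB2 at 251 ± 200, EPHA4 at 112 ± 28.3, EPHB3 at 91.3 ± 27.8 and EPHA1 at 45.5 ± 32.9 normalized counts per kb. Each overlapped its neighbour in that order, so the ranks are not firm. EPHA1 moved from the third level of 11 receptors to the seventh and EPHB2 from the eighth to the fourth. The canonical EPHB2 transcript has 11035 bases, and its level would be higher if the cells used a shorter transcript.

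Among 7 ephrins, EFNA1 and EFNB2 were the highest with 598 ± 109 and 598 ± 169 normalized counts per kb in control and 497 ± 323 and 466 ± 210 in depleted cells, overlapping each other. EFNA5 was at 451 ± 137 and 302 ± 126, and EFNB1 at 270 ± 40.9 and 127 ± 19.3. The summed level of all 11 receptors was 2546, 2752 and 1782 normalized counts per kb in control samples and 5238, 3112 and 3157 in depleted samples, which did not overlap. Summed ephrins were at 2264, 1957 and 2116 in control and 764, 1980 and 1904 in depleted samples, with depleted replicate 1 far below the rest.

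Shares of the summed level do not depend on the scaling between samples. EPHA1 made up 8.15%, 7.16% and 12.4% of the receptor sum in control and 0.153%, 1.89% and 2.20% in depleted samples, a difference of -7.81 percentage points. EPHB2 made up 0.277%, 0.108% and 1.19% in control and 0.439%, 12.7% and 10.6% in depleted samples, so that depleted replicate 1 lay among the control samples. EPHB6 went from 2.20% ± 1.99 to 12.4% ± 3.38 (SD, n = 3), with groups apart. EPHA2 held 47.7% ± 15.9 in control and 47.4% ± 12.8 in depleted cells. Exact two-sided permutation tests of 3 against 3 cannot go below p = 0.1, which EPHA1, EPHB6 and EPHA5 reached, and the adjusted p over the 11 receptors was 0.367 for each of them. Of the ephrins, EFNB1 made up 12.9% ± 2.49 and 9.42% ± 4.17 of the sum, and EFNB2 28.4% ± 8.33 and 29.9% ± 0.606, both with overlapping groups. EFNA3 went from 2.69% ± 0.45 to 0.935% ± 0.194 and EFNA4 from 6.33% ± 0.688 to 8.53% ± 1.71, with groups apart. These last 2 reached the smallest exact p of 0.1, with an adjusted p of 0.35 over the 7 ephrins.

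**Figure D3:**
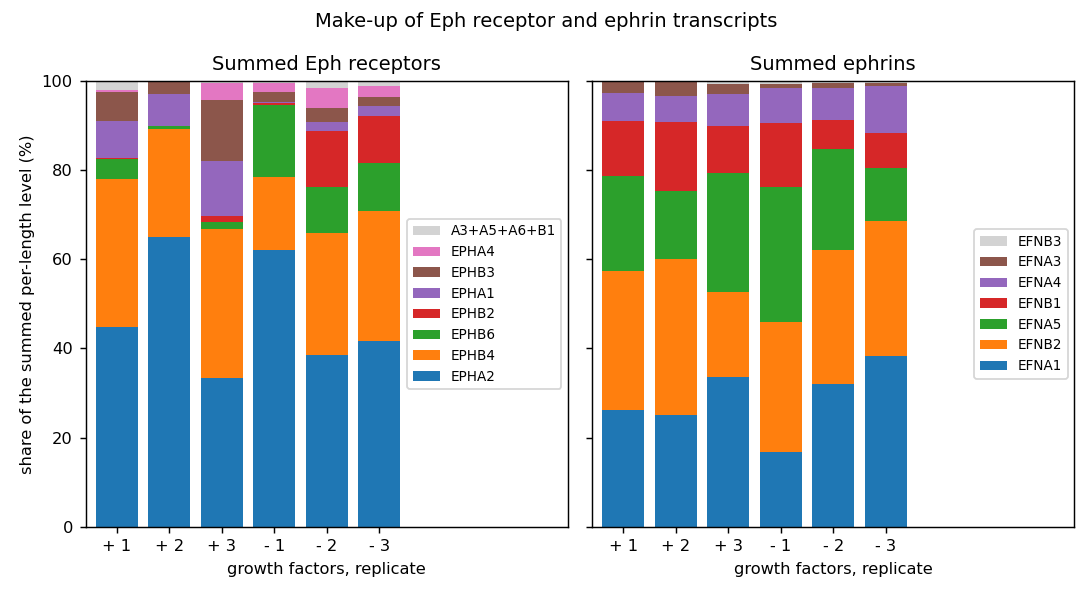
Stacked shares (%) of each gene in the summed per-length level of the 11 Eph receptors (left) and the 7 ephrins (right) in each sample, growth factor+ replicates 1 to 3 and then growth factor- replicates 1 to 3. EPHA2 and EPHB4 fill most of the receptor bars in all samples, EPHA1 narrows and EPHB6 widens without growth factors, and EPHB2 is wide only in depleted replicates 2 and 3.

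Receptors were set against ephrins they bind by the log2 ratio of their normalized counts within a sample, for 7 pairs. These counts are not divided by transcript length. Only the change of a ratio between groups is read, and its sign does not tell which gene was higher. The ratio of EPHB2 to EFNB1 was -3.56, -4.89 and -1.66 in control and -0.50, 3.38 and 2.93 in depleted samples, so the groups were apart and the mean rose in value by 5.31. For EPHB2 to EFNB2 it was -5.48, -6.66 and -3.10 against -2.13, 0.55 and 0.36, a difference of 4.67. Per kb, EPHB2 stayed below EFNB2 in depleted replicates 2 and 3, at 396 and 335 against 597 and 577. EPHA4 to EFNA1 was at -3.94, -4.17 and -1.43 in control and at 1.84, -0.15 and -1.11 in depleted samples, a difference of 3.37 with the groups apart.

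These 3 pairs reached the smallest p of the exact two-sided permutation test, 0.1, and had an adjusted p of 0.233 over the 7 pairs, so none passed. EPHA2 to EFNA1 (difference 1.29), EPHB4 to EFNB2 (0.77), EPHB3 to EFNB1 (0.40) and EPHA4 to EFNB2 (3.22) had overlapping groups. With a sample left out, the difference of EPHB2 to EFNB1 ran from 4.55 to 6.53, EPHB2 to EFNB2 from 3.88 to 5.67 and EPHA4 to EFNA1 from 2.55 to 4.25, and without depleted replicate 1 EPHA2 to EFNA1 was 0.03 and EPHB4 to EFNB2 0.33. In EPHA2 to EFNA1 depleted replicate 1 stood alone at 6.00, above 2.27 and 2.19 in the other depleted samples and 1.09 to 3.20 in control samples. Pairs that share a gene are not independent of each other.

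**Figure D4:**
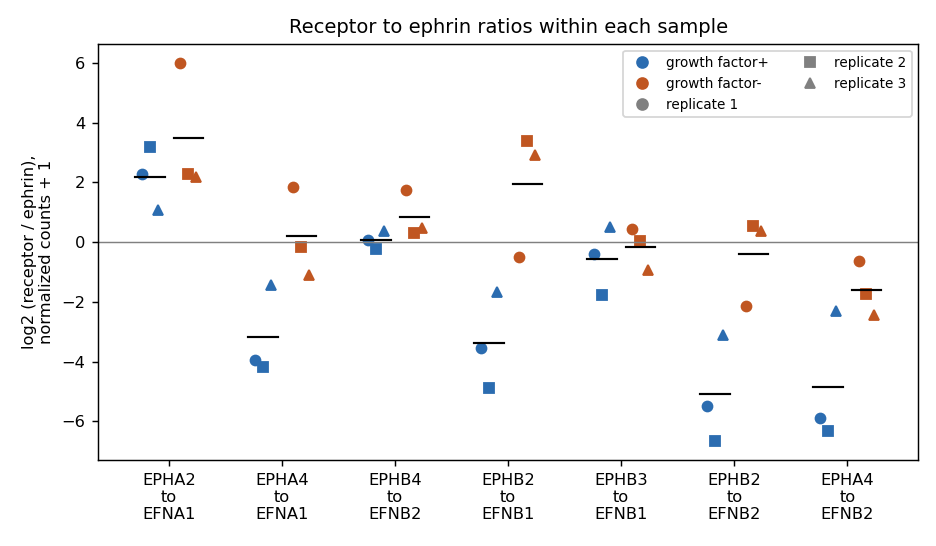
Log2 ratio of receptor to ephrin (normalized counts + 1) within each sample for 7 pairs that bind, growth factor+ samples in blue, growth factor- samples in orange, black lines for group means. The groups are apart for EPHA4 to EFNA1, EPHB2 to EFNB1 and EPHB2 to EFNB2, and depleted replicate 1 lies at 6.00 for EPHA2 to EFNA1.

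Genes that act with the receptors and ephrins were called about as often as genes in general. Of 48 such genes tested in 4 groups, limma called 3 higher and 0 lower in depleted cells, 6.25% beside 6.33% of all genes tested, and the median log2 fold change was -0.01. Counting both directions, 11 of the 48 had an unadjusted limma p under 0.05 (22.9% beside 20.0% of all genes), edgeR called 3 (6.25% beside 5.72%) and DESeq2 called 7 (14.6% beside 12.4%). None of the 22 adaptors and regulators of forward signalling was called by limma, at a median of -0.07. Of the 22, 3 had an unadjusted limma p under 0.05 (13.6% beside 20.0% of all genes), edgeR called 0 (beside 5.72%) and DESeq2 called 3 (13.6% beside 12.4%).

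Among 6 Src and Abl kinases, which Eph receptors and ephrins recruit, FYN rose and the median log2 fold change was 0.54. FYN was at 71.4, 162.3 and 268.6 normalized counts in control and 544.6, 683.2 and 717.7 in depleted samples, a rise of 2.13 on the log2 scale (SE 0.48, limma adjusted p = 0.0358). Of 12 partners of ephrin-B reverse signalling, ZHX2, a repressor reported to bind the tail of ephrin-B, rose from 170.4, 179.9 and 171.2 to 446.7, 443.2 and 360.0, a rise of 1.25 on the log2 scale (SE 0.29, limma adjusted p = 0.0435). Of 8 proteases and membrane enzymes, ADAM19 rose from 57.6, 210.3 and 58.0 to 1883.7, 6847.7 and 7613.4, a rise of 5.68 on the log2 scale (SE 0.66, limma adjusted p = 0.00241). ADAM19, a metalloprotease of the cell surface, kept its call in all 18 alternatives. FYN and ZHX2 each lost theirs when any sample other than control replicate 3 was left out, with log2 fold changes of 1.62 to 2.57 and 1.2 to 1.35 over the 6 such fits. Over the 18 alternatives FYN kept its call in 11 and ZHX2 in 9. For RHBDL2, a rhomboid protease that cuts B-type ephrins, limma gave -2.11 on the log2 scale (adjusted p = 0.0527). RHBDL2 was called by edgeR, by DESeq2, without the filter and with the length and GC correction. It was also called with all samples scaled to the same total, with quantile normalization and without control replicate 3, and in no other alternative.

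**Figure D5:**
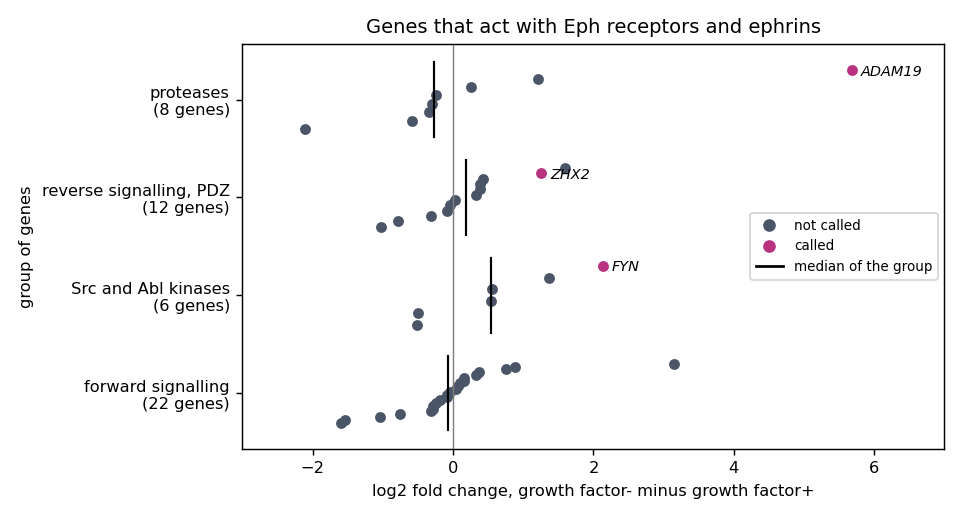
Log2 fold changes (growth factor- minus growth factor+) of 48 genes that act with Eph receptors and ephrins in 4 groups, each point a gene, pink for genes called by limma and a line for the group median. FYN, ZHX2 and ADAM19 are called, and the medians lie between -0.27 and 0.54.

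The genes whose profile over the 6 samples was most like that of EPHB2, by the root mean square difference of centred log2 values among 11643 named genes whose mean reached 100, were MMP13 (0.59), PROM1 (0.60) and MEX3B (0.73), where the median gene stood at 2.71. MMP13 was at 7.5, 4.7 and 16.7 normalized counts in control and 10.1, 409.1 and 306.3 in depleted samples. MEX3B was at 20.1, 10.0 and 49.2 and at 57.7, 358.6 and 375.6. Both reached the mean of 100 only through depleted replicates 2 and 3, and MMP13 was low in the other samples. PROM1, the gene of the membrane protein CD133, was at 151.6, 35.7 and 343.3 in control and 131.8, 3600.9 and 4474.1 in depleted samples. Its depleted replicate 1 lay within the control range, as it nearly did for EPHB2. The genes most like EPHA1 were TC2N (0.25), FAM83B (0.28) and KRTCAP3 (0.30), with a median gene at 1.70. KRTCAP3 was at 447.4, 360.3 and 257.7 in control and 12.8, 77.4 and 127.4 in depleted samples, lowest in depleted replicate 1 like EPHA1.

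Promoter sequence was read for the 250 bases before each RefSeq start (GRCh38.p14) of the 9 genes, on both strands, in 11 windows since EPHA4 and EPHB2 have more than 1, those of EPHB2 shifted by 1 base. The hexamer CACCTG, an E-box that SNAI and ZEB repressors can bind, was in 4 of the 11 windows, those of EPHA1, EPHB2 and EFNB2, and in 17.5% of all 35116 windows. Of the RUNX hexamers, TGTGGT was in 0 of the 11 (11% of all windows) and TGCGGT in 1, of EFNB1 (5.84%). The AP-1 motif TGANTCA was in 0 (6.57%), and TGACGTCA, a cAMP response element, in 1, of EPHA2 (1.65%). A match is a description of letters and not a site of binding. Shown are the last 100 bases before the start for the genes with the lowest and the highest fold change and for the most abundant receptor, 5′ to 3′ on the strand of the gene, with the motif in capitals. In EPHA1 and EPHB2 the capitals mark CACCTG read from the opposite strand, CAGGTG, and in EPHA2 they mark TGACGTCA. They are chr7:143408857-143408956 on the minus strand, chr1:22710738-22710837 on the plus strand and chr1:16156070-16156169 on the minus strand, in the order given.
EPHA1: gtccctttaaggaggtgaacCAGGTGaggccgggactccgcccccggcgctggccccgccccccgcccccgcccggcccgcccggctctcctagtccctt
EPHB2: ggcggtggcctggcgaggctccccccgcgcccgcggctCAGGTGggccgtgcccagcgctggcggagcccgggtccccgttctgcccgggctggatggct
EPHA2: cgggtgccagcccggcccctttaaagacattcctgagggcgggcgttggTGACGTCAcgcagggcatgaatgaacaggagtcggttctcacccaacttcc
The E-box begins 80 bases before the start in EPHA1 and 62 in EPHB2, genes whose values went in opposite directions, and the cAMP response element begins 51 bases before the start in EPHA2. Of the 100 bases, G or C made up 77, 81 and 61 in EPHA1, EPHB2 and EPHA2.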

How the data were processed

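Total RNA of 6 MCF10A samples had been depleted of ribosomal RNA, made into strand-specific libraries and read as single ends of 100 bases. Per the submitters' processing notes, the tools included cutadapt 1.6, TopHat2, HTSeq 0.6 and DESeq2 1.8.1 on hg38, and the methods name Gencode v22. The deposited values (unit signal) are reads per gene that the authors scaled by DESeq2 size factors, here called normalized counts. They are not divided by gene length. Whole reads were recovered for 100.0% of values (tolerance 0.01 read). Depth was 7472418 to 28672630 reads on genes, and floors cover counting error only. Gencode v44 named 18913 of 19198 identifiers and gave the coordinates, and 285 were not named.

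limma 3.58.1 (R 4.3.3, eBayes with a trend) was run on log2(normalized count + 1) for genes with a mean of at least 10, which understates changes of low genes. edgeR 4.0.16 and DESeq2 1.42.0 on recovered reads were alternatives. The scripts were tested on simulated data. Ratios and shares were tested by exact permutation (scipy 1.17.1). Tables and figures used Python 3.11.15. The members and all lists were chosen with earlier results of these data known. Named genes were the 9 members, every other family gene listed, up to 3 called genes per direction in each partner list, the 3 genes most like the member with the largest rise and the largest fall, and protein-coding genes that overlap a member. RHBDL2 falls outside that rule and was chosen after its values were seen. The replicate number as a block, other pseudocounts, filters and scalings, a length and GC correction, and leaving out each sample were alternatives, and the length of all exons for the shares was added after seeing the data. The design text gives 2 replicates per group while the labels list 3. One list of partner genes is not reported here.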

Additional observations from a re-analysis of the deposited data

How the results depend on the processing

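The count of 0 among the 9 Eph receptors and ephrins rose to 3 with the replicate number as a block, EPHA1, EPHA4 and EPHB2 (5.69% of all genes called). It rose to 3 by DESeq2 (12.4%) and to 1 with the length and GC correction (7.88%), and ran from 0 to 3 when a sample was left out (2.63% to 14.9%). The other alternatives gave 0. The count of 5 called among the 56 genes of the 5 pathway lists was 3 in limma without the trend (5.4% of all genes), 3 with the replicate block (5.69%), 3 with the length and GC correction under that block (4.24%) and 10 by DESeq2 (12.4%), and ran from 1 to 9 with a sample left out (2.63% to 14.9%). The cause was not tested. The block rests on shared replicate numbers only. Deviations of same-numbered samples correlated at -0.073, -0.283 and -0.323, and those of all control and depleted pairs ranged from -0.323 to 0.291. Within groups of 3 centred on their own mean, such values cannot show whether the numbers pair the samples.

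The signs of EFNA1, EFNB2 and EFNA4 turned without depleted replicate 1, in log2 fold changes that ran from -1.05 to 0.20, -0.71 to 0.02 and -0.51 to 0.35 when a sample was left out, and EFNA4 also turned by edgeR (0.04) and DESeq2 (0.01). The log2 ratio of EPHB3 to EFNB1 ran from -0.21 to 0.92 and turned without control replicate 2. Small share differences turned when a sample was left out, running in percentage points from -7.65 to 8.29 for EPHA2, from -0.159 to 0.719 for EPHA3, from -3.91 to 6.86 for EFNA1, from -3.19 to 4.81 for EFNB2 and from -3.91 to 5.27 for EFNA5, which was also -0.327 with no division by gene length. The other family genes tested and FYN, ZHX2 and ADAM19 kept their direction under every alternative run. At 3 samples a group, exact tests cannot pass 0.05, and the lowest depth, 7472418 reads, is in depleted replicate 3.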
